A study of Mus musculus with 71 samples.

Results

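Accessible chromatin was compared among pMN, p2 and p0-p1 progenitors that carried the MUT genotype and were sorted on day 5 of differentiation. The comparison rests on 9 of the 71 libraries of the series, 3 for each domain, chosen by their labels. Libraries were made by CaTS-ATAC, an ATAC-seq protocol in which the transposase Tn5 cuts open chromatin in fixed cells, which are sorted by antibodies to intracellular proteins such as SOX2, NKX6.1 and OLIG2. The cells were mouse embryonic stem cells differentiated in culture towards ventral spinal cord, first with bFGF, then with the Wnt pathway activator CHIR99021 from day 2, with 100 nM retinoic acid and 10 nM of the Sonic hedgehog agonist SAG from day 3, and with SAG alone from day 5.

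The groups were MUT day 5 pMN, MUT day 5 p2 and MUT day 5 p0-p1, all labelled NFIAn and with 3 libraries each. They were set beside WT day 5 pMN, p2 and p0-p1, also labelled NFIAn and with 2 libraries each. MUT cells of the same domains on days 7, 9 and 11, all NFIAn, gave 3 libraries a group on days 7 and 11 and 2 on day 9. WT cells of the same domains on days 7 and 9 (NFIAn) and on day 11 (NFIAp) served for 1 follow-up, with 2 or 3 libraries a group. The labels used here do not say which gene MUT cells lack or carry altered, whether MUT is 1 clone, or how an NFIA fraction was gated. They also do not say that libraries of a group came from separate cultures, so the spread behind each p-value may be technical.

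The domains are bands of dividing progenitors stacked along the dorsal-ventral axis of the neural tube, and Sonic hedgehog from the ventral midline sets their order. pMN lies most ventrally of those sorted here, expresses the transcription factor Olig2 and gives rise to motor neurons and later to oligodendrocyte precursors. p2, the next domain, makes ventral interneurons and expresses Nkx6-1 together with Irx3, and p0-p1 lies dorsal to it, expresses Dbx genes and Pax6 and makes other ventral interneurons. Transcription factors of neighbouring domains repress each other, which keeps the domains apart.

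The deposited values are read counts per genomic interval divided by a size factor for each library, called normalised read counts here. Intervals carry a number and neither a position nor a gene name, so the domain labels could not be checked against marker genes, no sequence could be read for an interval, and results are given for numbered intervals. Whole reads recovered from the values came to between 21651652 and 29518562 in the 9 libraries, against 20034731 to 31315134 in all 71. A run of 5 intervals, Interval_143053 to Interval_143057, is known from earlier results on these data to separate the genotypes. It held 1 read in all 9 MUT day 5 libraries together, against 243 to 292 reads in each of the 6 WT day 5 libraries. The share of the signal that lay in the top 1% of intervals moved with the domain: it was 16.3%, 16.6% and 16.3% in pMN, 17.1%, 17.0% and 17.3% in p2, and 18.1%, 17.6% and 17.6% in p0-p1. Its part in the results was not tested.

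The domains separated along 1 main axis. Of the variation among the 9 libraries over 155734 tested intervals, 67.3% lay between domains, and the median standard deviation between libraries of 1 domain was 0.26 on the log2(value + 5) scale. Principal component 1 accounted for 58.7% of the variance, with scores of 143 to 191 in pMN, -28.1 to -12.8 in p2 and -150 to -136 in p0-p1. p2 thus lay between the other domains, nearer to p0-p1 than to pMN on this axis. The second component, with 10.2% of the variance, placed the library numbered 1 lowest in each domain, at -63.2 in pMN, -43.2 in p2 and -100.2 in p0-p1.

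**Figure D1:**
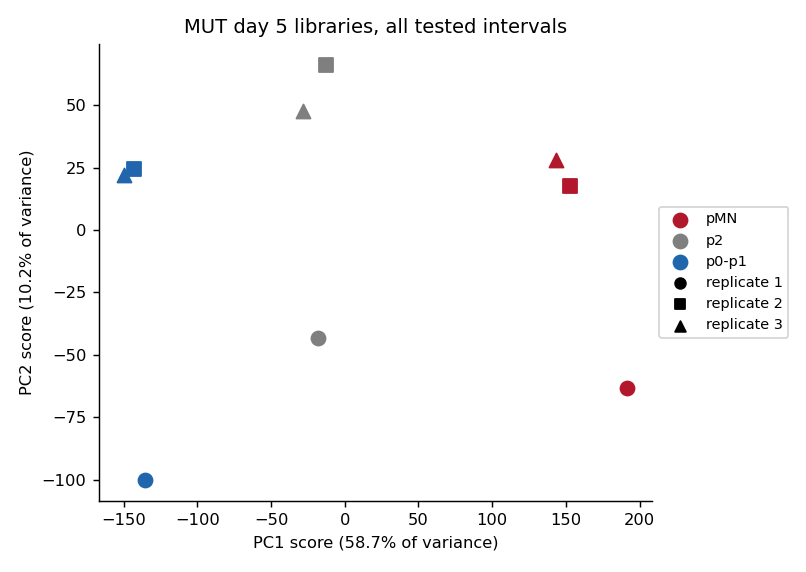
Scores of the 9 MUT day 5 libraries on the first and second principal components of log2(value + 5), with colour for the domain and shape for the replicate number. pMN libraries lie at 143 to 191 on the first component and p0-p1 libraries at -150 to -136, with p2 between them, and replicate 1 of each domain is lowest on the second component.

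Among the 3 domains, 25592 intervals changed by limma's moderated F-test, which is 16.4% of those tested. To count as changed, an interval needed an adjusted p (Benjamini-Hochberg) under 0.05 and a difference of at least 1 on the log2(value + 5) scale, a doubling for values well above the pseudocount of 5. Accessibility was highest in pMN in 17513 of these intervals (68.4%), in p2 in 924 (3.61%) and in p0-p1 in 7155 (28.0%). It was lowest in pMN in 7237, in p2 in 1986 and in p0-p1 in 16369.

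The widest difference was that between the ends of the series, pMN and p0-p1. Accessibility was higher in pMN than in p0-p1 in 17083 intervals (11.0% of those tested) and lower in 7165 (4.60%). The median change was 1.56 among the higher and -1.24 among the lower intervals on the log2(value + 5) scale. A difference of at least 2 on that scale was reached by 4563 intervals in the direction of pMN and by 344 in the direction of p0-p1. In all, 24248 intervals changed, 15.6% of those tested. Each library holds a sorted population, so fewer cells with an open interval and a weaker signal per cell cannot be told apart.

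The intervals that rose most in pMN were low in p0-p1 and intermediate in p2. Interval_37707 had values of 415, 367 and 367 in pMN, 38.7, 52.3 and 70.2 in p2, and 9.09, 14.7 and 9.47 in p0-p1, and its change of pMN against p0-p1 was 4.61 ± 0.33 (log2, standard error; limma adjusted p = 1.58e-18). Interval_151631 had 321, 271 and 286 in pMN, 50.5, 61.4 and 61.1 in p2, and 7.95, 6.87 and 9.47 in p0-p1, a change of 4.51 ± 0.22. Interval_60578 had 258, 217 and 179 in pMN, 25.8, 42.1 and 27.3 in p2, and 5.68, 6.87 and 6.31 in p0-p1, a change of 4.29 ± 0.28. In all these intervals every pMN library was above every p2 library and every p2 library above every p0-p1 library. The rule for naming them required the gap between pMN and p0-p1 but not those to p2.

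The intervals that fell most in pMN had the domains in the reverse order. Interval_96447 had values of 4.68, 6.49 and 5.56 in pMN, 15.0, 7.96 and 20.1 in p2, and 128, 129.5 and 199 in p0-p1, a change of -3.87 ± 0.31 in pMN against p0-p1 (log2, standard error; limma adjusted p = 1.09e-16). Interval_70689 had 5.61, 5.40 and 7.14 in pMN, 19.3, 12.5 and 22.8 in p2, and 118, 107 and 131 in p0-p1, a change of -3.48. Interval_137390 had 22.5, 38.9 and 37.3 in pMN, 69.8, 84.1 and 109 in p2, and 362, 368 and 424 in p0-p1, a change of -3.39. p0-p1 stood apart from both other domains in these intervals, and p2 and pMN were closer to each other. In Interval_96447 the difference of pMN minus p2 was not called (-0.82, limma adjusted p = 0.0615).

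Open in 1 domain and shut in the other was rare. In 10 intervals each pMN library had a value of at least 30 while the p0-p1 libraries held at most 3 reads together. No interval met this rule in the opposite direction or in either direction of the other pairs.

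**Figure D2:**
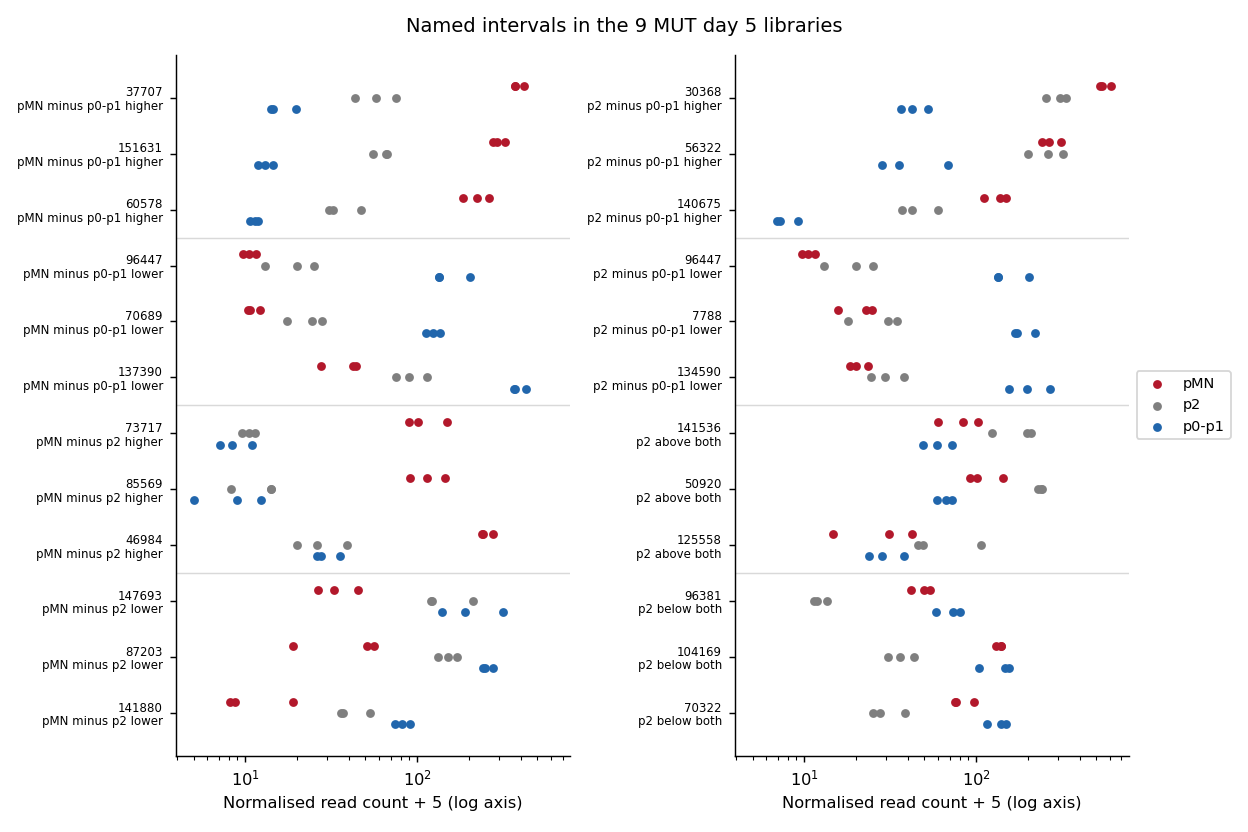
Normalised read counts plus 5, on a log axis, of the named intervals in the 9 MUT day 5 libraries, with 1 point per library and colour for the domain (top to bottom in each row: pMN, p2, p0-p1). Row labels give the interval's number and the comparison it was named for. In Interval_37707 at the top left the pMN libraries lie at 367 to 415 before the 5 is added and the p0-p1 libraries at 9.09 to 14.7, with p2 between them.

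pMN also differed from its neighbour p2 in 10896 intervals, mostly ones that were more open in pMN. Accessibility was higher in pMN than in p2 in 9531 intervals (6.12% of those tested) and lower in 1365 (0.876%). The median change was 1.35 among the higher and -1.12 among the lower intervals, and 711 of the higher ones reached a difference of at least 2. The largest fall was -2.12.

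The strongest of the higher intervals were open in pMN and low in both other domains. Interval_73717 had values of 143, 96.2 and 84.9 in pMN, 6.44, 4.55 and 5.47 in p2, and 3.41, 5.89 and 2.10 in p0-p1, and its change of pMN against p2 was 3.40 ± 0.30 (log2, standard error; limma adjusted p = 4.15e-13). Interval_85569 had 140.3, 85.4 and 109.5 in pMN against 3.22, 9.10 and 9.12 in p2, and held 0, 3.92 and 7.36 in p0-p1. Interval_46984 had 269, 233 and 236 in pMN against 15.0, 34.1 and 21.0 in p2, and 30.7, 22.6 and 21.0 in p0-p1. p2 and p0-p1 libraries overlapped in all these intervals, and every pMN library was above them, as the rule for naming them requires for p2.

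Of the 1365 intervals lower in pMN than in p2, 857 met the conditions for naming. Those that fell most among the 857 were open in p0-p1 as well. Interval_147693 had values of 40.2, 21.6 and 27.8 in pMN, 207, 116 and 117 in p2, and 309, 184 and 135 in p0-p1, a change of -2.10 ± 0.28 in pMN against p2 (log2, standard error; limma adjusted p = 2.21e-08). Interval_87203 had 14.0, 50.8 and 46.0 in pMN, 127, 146 and 165 in p2, and 237, 272 and 243 in p0-p1. Interval_141880 had 3.74, 14.1 and 3.17 in pMN, 31.1, 31.8 and 48.3 in p2, and 85.2, 76.5 and 69.4 in p0-p1. pMN was the low domain in each of them.

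p2 and p0-p1 differed in the fewest intervals of the 3 pairs, 5252 (3.37% of those tested). Accessibility was higher in p2 than in p0-p1 in 3805 intervals (2.44% of those tested) and lower in 1447 (0.929%), with median changes of 1.22 and -1.20. A difference of at least 2 was reached by 101 higher and 49 lower intervals.

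The intervals that rose most in p2 were open in pMN too. Interval_30368 had values of 304, 329.7 and 249 in p2 against 37.5, 47.1 and 31.6 in p0-p1, a change of 2.78 ± 0.13 (log2, standard error; limma adjusted p = 1.2e-25), and 606, 533 and 522 in pMN. Interval_56322 had 314, 257 and 194 in p2 against 63.6, 30.4 and 23.1 in p0-p1, and 306, 236 and 261 in pMN, so that p2 and pMN overlapped. Interval_140675 had 32.2, 54.6 and 37.4 in p2 against 2.27, 1.96 and 4.21 in p0-p1, and 143, 106 and 133 in pMN. p0-p1 was the lowest domain in each case.

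Interval_96447, described above, also had the largest fall in p2 against p0-p1, a change of -3.04 ± 0.31 (log2, standard error; limma adjusted p = 1.84e-11). Interval_7788 had values of 12.9, 29.6 and 25.5 in p2 against 162, 168 and 215 in p0-p1, and 17.8, 10.8 and 19.8 in pMN. Interval_134590 had 19.3, 33.0 and 24.6 in p2 against 151, 192 and 265 in p0-p1, and 15.0, 18.4 and 13.5 in pMN. Every p0-p1 library was above every library of both other domains in these intervals, as the rule for naming them requires for p2.

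The calls in the 3 pairs sort each interval into a class. The pairs share libraries, so the classes describe the calls and are not a further test. Of 25651 intervals called in at least 1 pair, 7273 were higher in pMN than in both other domains with no call between p2 and p0-p1, and their median values were 49.9 in pMN, 14.8 in p2 and 10.2 in p0-p1. A further 6301 were called only as higher in pMN than in p0-p1, with medians of 45.7 in pMN, 26.7 in p2 and 16.0 in p0-p1. Intervals with p0-p1 below both other domains numbered 1889, and 1620 stepped up from p0-p1 through p2 to pMN with each step called. In the opposite direction, 4926 were called only as lower in pMN than in p0-p1, 1165 had p0-p1 above both, 999 had pMN below both and 75 stepped down to pMN.

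**Figure D3:**
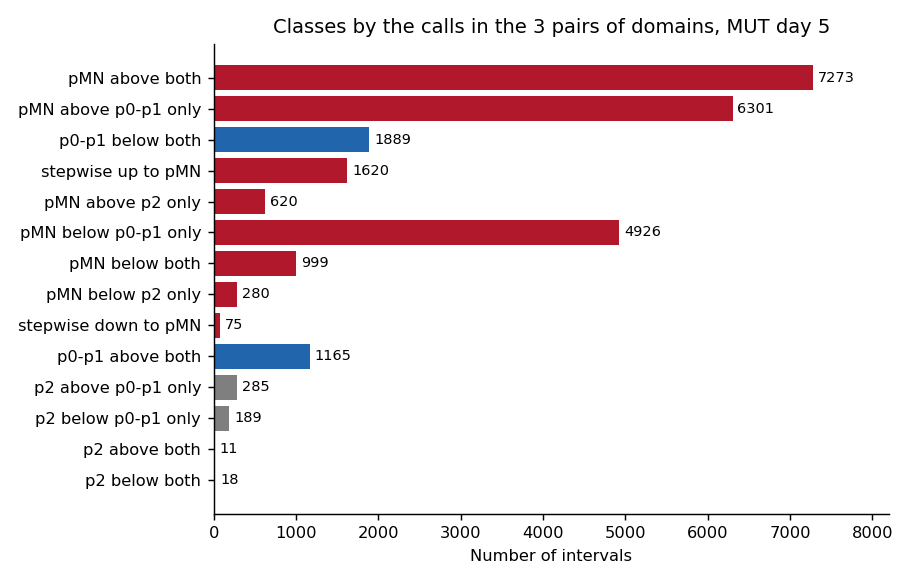
Number of intervals in each class formed by the calls in the 3 pairs of MUT day 5 domains, coloured by the domain named first (red for pMN and for the stepwise classes, grey for p2, blue for p0-p1). The class with pMN above both other domains is the longest bar at 7273 intervals, and p2 stood above both in 11 and below both in 18.

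By calls in both of its pairs, p2 had next to no intervals of its own on day 5. It was called above both other domains in 11 intervals (0.00706% of those tested) and below both in 18 (0.0116%). The F-test does not ask for a call on both sides, and among its intervals p2 was highest in 924 and lowest in 1986. Interval_50920 had values of 236, 224 and 232 in p2, against 96.4, 87.5 and 139 in pMN and 54.5, 61.8 and 67.3 in p0-p1. Interval_141536 had 119, 205 and 192 in p2, against 55.2, 78.9 and 97.6 in pMN and 44.3, 54.0 and 67.3 in p0-p1. In both intervals every p2 library was above every other library, as the rule for naming them requires. The smaller of the changes was close to the threshold: pMN minus p2 was -1.09 ± 0.24 in Interval_50920 and -1.10 ± 0.27 in Interval_141536 (log2, standard error, limma adjusted p = 0.000459 and 0.00215). That difference was no longer called in Interval_50920 without pMN replicate 2 (-0.97), nor in Interval_141536 without pMN replicate 1 (-0.90) or without p2 replicate 2 (-0.96). The third named interval, Interval_125558, had 101, 40.9 and 43.8 in p2, against 37.4, 9.73 and 26.2 in pMN and 32.9, 18.6 and 23.1 in p0-p1, and without p2 replicate 1 neither p2 comparison was called (limma adjusted p = 0.0808 and 0.243). pMN minus p2 was also lost there without pMN replicate 2 (-0.77), and p2 minus p0-p1 without p0-p1 replicate 2 (0.92).

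Other intervals were lower in p2 than on both sides of it, and the 3 named had no overlap between p2 and the other domains, as the rule for naming them requires. Interval_96381 had values of 8.59, 6.82 and 6.38 in p2, against 48.7, 36.7 and 44.4 in pMN and 68.2, 53.0 and 75.7 in p0-p1. Interval_104169 had 25.8, 38.7 and 31.0 in p2, against 134, 134 and 126 in pMN and 151, 99.1 and 143 in p0-p1. Interval_70322 had 33.3, 22.7 and 20.1 in p2, against 91.7, 71.3 and 70.6 in pMN and 111, 144 and 135 in p0-p1. p2 was not closed in all of them, since 2 p2 libraries of Interval_104169 were above 30.

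The same rule gave other counts in other libraries, given here as a description with no test of the difference. p2 was above both other domains in 11 intervals of MUT on day 5, 486 on day 7, 1314 on day 9 and 472 on day 11, and in 17 intervals of WT on day 5. pMN, stepwise intervals included, was above both others in 8893, 3055, 1519 and 670 intervals of MUT on days 5, 7, 9 and 11, and in 7855 of WT on day 5. p0-p1, counted likewise, was above both others in 1240, 1355, 1833 and 5001 intervals of MUT on those days, and in 680 of WT on day 5. Day 9 and WT day 5 have 2 libraries a group. The calls behind these counts covered 10.9%, 8.51% and 12.4% of the tested intervals for pMN minus p0-p1 on MUT days 7, 9 and 11, 4.80%, 5.17% and 3.52% for pMN minus p2, and 2.80%, 3.45% and 6.51% for p2 minus p0-p1. The library labelled MUT day 7 pMN replicate 3 holds 213 reads in the run that separates the genotypes, as WT libraries do, and that labelled WT day 7 pMN replicate 3 holds 0. Without these 2 libraries the MUT day 7 counts were 425 for p2, 3090 for pMN and 1323 for p0-p1.

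The intermediate place of p2 was measured over whole sets of intervals. Over the 17083 intervals higher in pMN than in p0-p1, the mean of log2(value + 5) was 6.25, 6.06 and 6.07 in the pMN libraries, 5.01, 5.14 and 5.05 in p2, and 4.41, 4.42 and 4.42 in p0-p1. With p0-p1 set to 0 and pMN to 1, p2 lay at 0.38 on average, with its libraries between 0.35 and 0.42. Over the 7165 lower intervals p2 lay at 0.50, between 0.44 and 0.60. In WT day 5 libraries, which took no part in choosing the sets, p2 lay at 0.40 in the first set and at 0.53 in the second. p2 was thus nearer to p0-p1 over the intervals more open in pMN, and about midway over those less open, in both genotypes.

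Calls varied with level. With intervals split into 4 equal groups by the mean of the 9 libraries, 9.26% of the lowest, 22.0% and 22.3% of the middle groups and 12.3% of the highest were called in at least 1 pair. Changed intervals also stood next to each other in the numbering more often than the share of all intervals that changed: the next number had also risen for 17.5% of the intervals that rose in pMN against p0-p1, and had also fallen for 9.38% of those that fell, beside 11.0% and 4.60% of all tested intervals. What order the numbers follow is not stated in the sources used here. Interval_134303 to Interval_143753 shifted together. Their median deviation from the mean of the 9 libraries was 0.00, 0.12 and 0.16 in p0-p1 (log2, replicate order). It was -0.11, 0.03 and 0.04 in p2, and -0.16, -0.07 and -0.02 in pMN. Elsewhere it lay between -0.03 and 0.02. Interval_134590, Interval_137390, Interval_140675, Interval_141536 and Interval_141880 lie in this stretch. The part of the shift in their values was not tested.

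The longest run of neighbouring calls held 13 intervals, Interval_15096 to Interval_15108, all higher in pMN than in p0-p1 and than in p2. Its mean value was 153, 118 and 98.4 in the pMN libraries, 34.9, 40.6 and 35.8 in p2, and 23.0, 25.0 and 24.8 in p0-p1. In WT day 5 libraries the mean was 107 ± 18.5 in pMN, 31.1 ± 0.344 in p2 and 20.5 ± 1.88 in p0-p1 (SD, n = 2 each). By day 11 the MUT libraries gave 74.0 ± 5.75 in pMN, 75.4 ± 18.2 in p2 and 120.1 ± 29.7 in p0-p1 (SD, n = 3 each), with p0-p1 then the highest on average. The longest run that was lower in pMN than in p0-p1 held 6 intervals, Interval_144330 to Interval_144335, with mean values of 36.6, 56.9 and 73.2 in pMN, 77.9, 111 and 112 in p2, and 102, 147 and 154 in p0-p1. The longest run that was higher in p2 than in p0-p1 held 5, Interval_14424 to Interval_14428, with 53.9, 85.5 and 76.9 in p2, 13.0, 24.5 and 26.7 in p0-p1, and 130.2, 127 and 125 in pMN.

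Whether the domains differed in another way in MUT than in WT cells was tested as the difference between their domain differences. No interval was called in any pair by limma (0 of 155734, 0% in each), and edgeR's quasi-likelihood test on the recovered reads also called 0 in each. An unadjusted p under 0.05 was reached in 4565 intervals (2.93%) for pMN minus p0-p1, in 3019 (1.94%) for pMN minus p2 and in 3770 (2.42%) for p2 minus p0-p1, and by edgeR in 4128, 2670 and 2973. Each of these shares was below the fraction of 0.05 that such a threshold passes when nothing differs. These counts do not show that the genotypes act alike. With 2 WT libraries a group the median standard error of such a difference was 0.41 and the median 95% interval reached 0.82 to either side on the log2 scale. For pMN minus p0-p1 the whole interval lay within 1 of 0 in 44.2% of the intervals. With the replicate number as a block, limma called 4 intervals for pMN minus p0-p1 and 0 for each of the other pairs; these 4 are named after their values were seen. In Interval_147612 the values, in order of replicate number, were 31.8, 38.9 and 42.1 in MUT pMN and 13.3 and 25.6 in WT pMN. They were 12.5, 9.81 and 9.47 in MUT p0-p1 and 11.3 and 14.6 in WT p0-p1. The difference was 1.04 on the log2 scale (limma with the block, adjusted p = 0.0373, and without it, adjusted p = 1). Interval_20954 and Interval_151425 differed by 1.19 and 1.20, and Interval_22310 by -1.24. All 4 had the same adjusted p with and without the block as Interval_147612.

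Estimates in the WT libraries ran with those in MUT. Across the 155734 intervals, which are not independent replicates, Pearson's r between MUT and WT differences on day 5 was 0.89 for pMN minus p0-p1, 0.80 for pMN minus p2 and 0.67 for p2 minus p0-p1. The intervals higher in pMN than in p0-p1 in MUT had a median difference of 1.54 in WT, and those lower had -1.09. Of the 17083 higher intervals, 13821 were also called higher in WT, which is 80.9% of the MUT list and 83.5% of the 16550 in the WT list, beside 10.6% of all intervals called so in WT. Of the 7165 lower ones, 4018 were also called in WT, which is 56.1% of the MUT list and 56.4% of the 7126 in the WT list, beside 4.58% of all intervals. For pMN against p2 the shared intervals were 6596 higher (69.2% of the MUT list and 78.1% of the WT list) and 548 lower (40.1% and 30.7%), beside 5.42% and 1.15% of all intervals called so in WT. For p2 against p0-p1 they were 2234 higher (58.7% and 61.2%) and 470 lower (32.5% and 55.2%), beside 2.34% and 0.547% of all intervals. In either direction, WT day 5 calls covered 15.2% of all intervals for pMN minus p0-p1, 6.57% for pMN minus p2 and 2.89% for p2 minus p0-p1. No interval called in MUT was called in the opposite direction in WT in any pair.

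**Figure D4:**
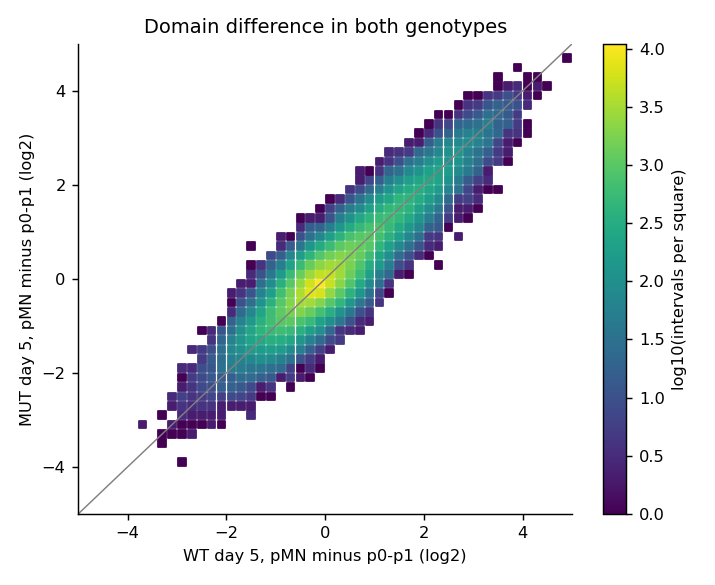
Difference of pMN minus p0-p1 on day 5 in MUT (vertical) against WT (horizontal), both as differences of mean log2(value + 5), with the colour of each 0.2 by 0.2 square showing log10 of the number of intervals in it. The squares follow the diagonal line of equal difference, with r of 0.89 across the 155734 intervals.

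The WT day 5 values of 3 named intervals illustrate this. Interval_37707 had values of 418 and 398 in WT pMN, 50.0 and 60.8 in WT p2, and 6.79 and 12.4 in WT p0-p1. Interval_96447 had 4.74 and 14.4 in WT pMN, 11.6 and 7.60 in WT p2, and 97.3 and 99.0 in WT p0-p1. Interval_96381, low in MUT p2, had 59.7 and 32.8 in WT pMN, 8.13 and 3.26 in WT p2, and 46.4 and 46.1 in WT p0-p1. The order of the domains in each was as in MUT, except that in Interval_96447 pMN and p2 overlapped in WT, and in Interval_96381 pMN and p0-p1 did. Intervals with p2 apart were called in WT day 5 only in part. For the 18 with p2 below both in MUT, WT called 9 for pMN minus p2 (50%, beside 5.42% of all intervals). For p2 minus p0-p1 it called 4 (22.2%, beside 0.547%). For the 11 with p2 above both, WT called 4 (36.4%, beside 1.15%) and 3 (27.3%, beside 2.34%). The median WT differences had the MUT direction: 1.01 and -0.74 for the 18, and -0.86 and 0.81 for the 11.

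The domain differences of day 5 were compared with those of MUT cells on day 11 in the same way. The difference changed in 37070 intervals (23.8% of those tested) for pMN minus p0-p1, with 12383 higher (7.95% of those tested) and 24687 lower (15.9%) on day 11. For pMN minus p2 it changed in 14911 intervals (9.57%), 1928 of them higher (1.24%) and 12983 lower (8.34%). For p2 minus p0-p1 it changed in 10626 (6.82%), with 2889 higher (1.86%) and 7737 lower (4.97%). Under quantile normalization 45.8% in place of 33.4% of the changed intervals for pMN minus p0-p1 were higher, and equal library totals moved the median of all intervals in this comparison to -0.05, against 0.08 in the values as deposited.

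Across intervals, the day 5 differences faded in likeness to those of later days, whose libraries are separate. For pMN minus p0-p1, Pearson's r across intervals was 0.63 with day 7, 0.32 with day 9 and 0.03 with day 11. For pMN minus p2 it was 0.39, 0.06 and -0.03, and for p2 minus p0-p1 it was 0.52, 0.29 and 0.17. Without the 2 day 7 libraries named above, the values for day 7 were 0.63 for pMN minus p0-p1 and 0.40 for pMN minus p2.

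The intervals more open in pMN than in p0-p1 on day 5 converged over the following days. The day 5 values chose these intervals, so their day 5 level is a description. Their mean of log2(value + 5) in MUT was 6.13, 5.84, 5.73 and 5.25 in pMN on days 5, 7, 9 and 11, 5.07, 5.63, 5.84 and 5.44 in p2, and 4.42, 5.14, 5.46 and 5.41 in p0-p1. Over all tested intervals the group means stayed between 5.46 and 5.61. The median difference of pMN minus p0-p1 was 0.68, 0.26 and -0.16 on days 7, 9 and 11, and 0.72 on day 7 without the 2 libraries named above, when the day 7 mean in pMN was 5.88. Of the 17083, 5286 were called higher in pMN again on day 7 (30.9%, beside 5.26% of all intervals) and 2072 on day 9 (12.1%, beside 2.96%), and without those 2 libraries the day 7 count was 5702 (33.4%). On day 11, 990 of the 17083 were still called higher in pMN (5.80%, beside 4.75% of all intervals), and 1847 were called lower (10.8%, beside 7.63%).

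The intervals less open in pMN than in p0-p1 on day 5 had lower values in every domain on the later days. Their mean of log2(value + 5) in MUT was 4.69, 4.37, 4.26 and 4.35 in pMN on days 5, 7, 9 and 11, 5.36, 4.80, 4.43 and 4.47 in p2, and 6.03, 5.41, 4.89 and 4.81 in p0-p1. The median difference of pMN minus p0-p1 was -0.97, -0.51 and -0.34 on days 7, 9 and 11, and -0.94 on day 7 without those 2 libraries. Of the 7165, 3429 were called lower in pMN again on day 7 (47.9%, beside 5.67% of all intervals) and 1789 on day 9 (25.0%, beside 5.55%). On day 11, 1453 of the 7165 were still called lower in pMN (20.3%, beside 7.63% of all intervals), and 133 were called higher (1.86%, beside 4.75%).

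**Figure D5:**
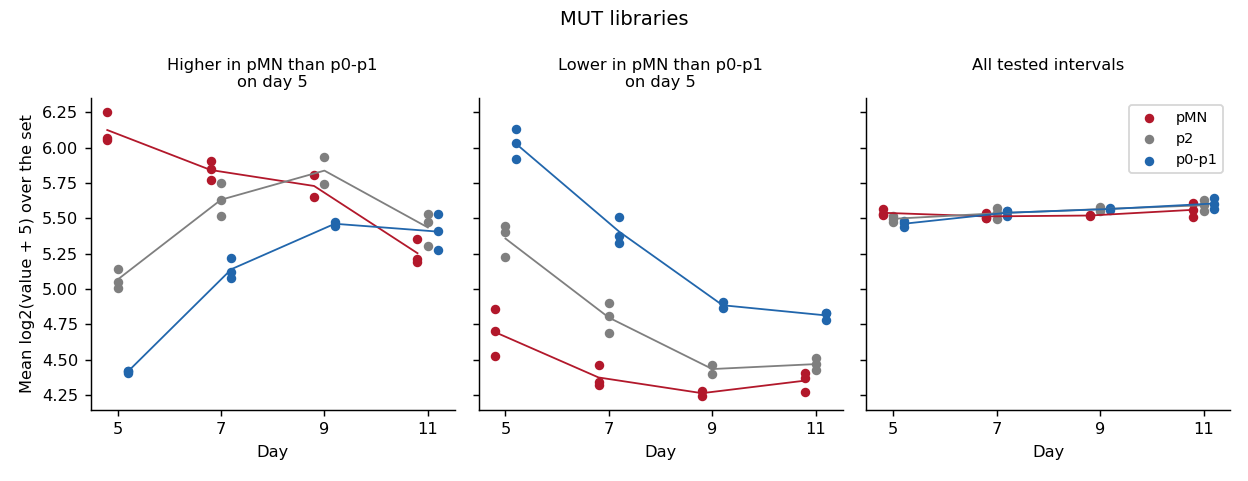
Mean of log2(value + 5) over the intervals called higher in pMN than in p0-p1 on day 5 (left), those called lower (middle) and all tested intervals (right), in MUT libraries by day, with 1 point per library, lines through the group means and colour for the domain. In the left panel pMN falls to 5.25 and p0-p1 rises to 5.41 by day 11, in the middle panel p0-p1 falls to 4.81, and in the right panel the group means stay between 5.46 and 5.61.

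WT libraries, which did not choose the intervals, had later values on the same side of day 5 as MUT in pMN and p0-p1. Over the intervals higher in pMN, WT p2 was also above its day 5 level on days 7 and 9, and on day 11 its median change was near 0. Over these intervals, the median change from WT day 5 in p0-p1 was 0.51, 0.68 and 0.68 on days 7, 9 and 11, beside 0.00, 0.01 and 0.08 for all tested intervals. In WT pMN the median change was -0.35, -0.75 and -1.08, beside 0.01, 0.01 and 0.03 for all tested intervals. In WT p2 it was 0.40, 0.45 and 0.02, beside -0.01, 0.01 and 0.04, so that on day 11 the p2 value was no higher than that of all intervals. Without the WT day 7 pMN library named above, the day 7 value in pMN was -0.43. Over the intervals lower in pMN, the median change in WT p0-p1 was -0.51, -0.99 and -1.15. WT cells on day 11 were labelled NFIAp and those on the other days used here NFIAn, so in the day 11 values a change with day and a difference between fractions cannot be told apart.

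Single intervals took different courses to day 11 in MUT. Interval_140675 and Interval_30368 had higher values in p0-p1 than on day 5: Interval_140675 had 82.8, 89.1 and 93.3 in pMN, 149, 125 and 103 in p2, and 128, 119 and 99.4 in p0-p1 on day 11, and Interval_30368 had 802, 804 and 797 in pMN, 877, 776 and 739 in p2, and 398, 359.9 and 365 in p0-p1. Interval_56322 stayed low in p0-p1, with 144, 133 and 129 in pMN, 212, 177 and 184 in p2, and 25.7, 25.1 and 17.9 in p0-p1. Interval_60578 turned over, with 43.6, 35.3 and 27.1 in pMN, 87.5, 68.7 and 31.2 in p2, and 137, 92.2 and 52.0 in p0-p1, so that p0-p1 was the lowest domain on day 5 and had the highest mean on day 11, when its libraries overlapped those of p2.

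Other intervals were low everywhere or high in p0-p1 alone. Interval_73717 had 9.81, 8.82 and 7.46 in pMN, 5.03, 5.73 and 3.67 in p2, and 13.7, 5.37 and 7.17 in p0-p1 on day 11, and so was low in all domains. Interval_7788 kept its domain, with 14.2, 18.6 and 14.9 in pMN, 13.1, 17.2 and 21.1 in p2, and 306, 257 and 388 in p0-p1. Interval_134590 did likewise, with 32.7, 24.5 and 27.1 in pMN, 33.2, 22.0 and 27.5 in p2, and 211, 255 and 391 in p0-p1. Interval_104169, open in pMN and p0-p1 on day 5, had 19.6, 14.7 and 22.4 in pMN, 13.1, 24.8 and 22.0 in p2, and 289, 288 and 428 in p0-p1 on day 11, so that p0-p1 was by then the one domain with high values.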

How the data were processed

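CaTS-ATAC was run on sorted mouse progenitors. The authors deposited 1 table of 155738 numbered intervals by 71 libraries in 26 groups, and its signal values are read counts scaled by a size factor for each library. Per the submitters' processing notes the build was mm10. The sources used here do not give the aligner, peak caller or size factor method. Whole reads came out of 100% of values in every library, within a tolerance of 0.01.

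Tests covered the 155734 intervals that reached a value of 10 in 2 or more libraries. limma 3.58.1 in R 4.3.3 was fitted once to log2(value + 5) over 26 group means, with a mean-variance trend (residual degrees of freedom, 45), and Benjamini-Hochberg adjustment ran over all tested intervals in each of 10 tests. A call needed an adjusted p under 0.05 and a log2 difference of at least 1. At the median value of the 9 libraries, 29.8, counting error was 18.3% (counting error only).

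Named intervals were the 3 largest called changes per pair and direction at or above the median level with no overlap between libraries, the 3 clearest for p2 above or below both, and the longest run of calls per direction. The members, lists and comparisons were chosen with earlier results of these data known.

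Labels do not say what replicate numbers mean. Deviations of same-numbered MUT day 5 libraries correlated at 0.12 to 0.29 in 9 pairs, and those of other numbers at -0.21 to 0.06. The main tests had no replicate block and so leave this likeness of same-numbered libraries out. A block entered only as an alternative setting. Alternatives were other pseudocounts, filters and scalings, a replicate block, fewer groups, libraries or intervals, and edgeR 4.0.16 on recovered reads. Figures were drawn with matplotlib 3.10.9.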

Additional observations from a re-analysis of the deposited data

Results flagged for a closer look

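The difference between domains changed between MUT day 5 and MUT day 11 in 37070 intervals for pMN minus p0-p1, in 14911 for pMN minus p2 and in 10626 for p2 minus p0-p1 (limma, test of the difference itself). For named intervals the day 5 libraries both chose the interval and enter the difference, so the values are given as a description.

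Day 11 minus day 5, the difference of pMN minus p0-p1 was -3.25 in Interval_37707, -4.67 in Interval_151631 and -5.51 in Interval_60578 on the log2 scale, and 1.67 in Interval_96447 and 1.15 in Interval_70689. That of pMN minus p2 was -2.92 in Interval_73717, -2.82 in Interval_85569 and -2.45 in Interval_46984, and 1.92 in Interval_147693 and 1.86 in Interval_141880. That of p2 minus p0-p1 was -1.70 in Interval_30368 and -2.45 in Interval_140675. Among intervals low in p2 on day 5, Interval_96381 had 2.37 for p2 minus p0-p1, Interval_104169 had -1.95 for pMN minus p2 and -1.90 for p2 minus p0-p1, and Interval_70322 had -1.54 for pMN minus p2.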

How the results depend on the processing

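Counts are given in the order pMN minus p0-p1, pMN minus p2, p2 minus p0-p1. On day 5, a pseudocount of 20 gave 11895, 4474 and 1565 calls, and a mean value of at least 30 gave 12172, 5566 and 3117. For day 11 minus day 5, these settings gave 20081, 8310 and 5099, and 17693, 8023 and 5684. Intervals called among the domains numbered 12136 by the F-test and 12136 in any pair with a pseudocount of 20, and 12675 and 12689 with a mean of at least 30. A larger pseudocount shrinks differences of low values, and the filter leaves 80567 intervals. For MUT minus WT, a pseudocount of 1 gave 2, 3 and 1 calls and a pseudocount of 20 gave 2 for pMN minus p0-p1, against 0; the cause was not tested. The replicate block gave 4 for that comparison and moved no other count by over 1.5 times.

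Leaving out 1 library at a time gave 22653 to 26305, 9588 to 12597 and 4947 to 5945 calls on day 5, and 0 to 0 for MUT minus WT in each pair. It gave 33870 to 37142, 12286 to 15258 and 7919 to 10127 for day 11 minus day 5, 23561 to 27463 by the F-test and 24043 to 28012 in any pair. Without the 3 MUT day 5 libraries numbered 1, an alternative chosen after seeing the data, calls were 23481, 8537 and 4716. edgeR called 31373, 14046 and 6712. Of 527 values of named intervals under other settings, 514 kept their call and direction and 13 lost the call, none reversing. The 13 belong to Interval_125558, Interval_141536 and Interval_50920. For the day 5 pairs, the median 95% interval reached 0.52 to either side. Differences well under it were not detectable, at this depth and replicate number, in intervals of that precision. Smaller ones could be detected where the standard error was smaller. The median 95% interval was 0.82 for MUT minus WT and 0.74 for day 11 minus day 5. The log2 threshold of 1 left further intervals uncalled. For pMN minus p0-p1 on day 5, 50372 intervals had a limma adjusted p under 0.05, and 26124 of them (51.9%) lay below that threshold.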
